A study of Mus musculus with 24 samples.

Results

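AP-1 and MAF transcription factors are basic leucine zipper proteins. In libraries labelled as dendritic cells, 8 of their genes were followed here: Fos, Fosl2, Jun, Junb, Jund, Batf, Maf and Maff. They were taken by symbol from the 12767 genes of the deposited table, and all 8 were listed and tested in every group. CD11c+ cells were purified with magnetic beads from the mesenteric lymph nodes of mice bearing MC38 tumours, a colon carcinoma line grown under the skin, and their RNA was sequenced in bulk. The 24 libraries form 8 groups of 3. Wild-type (WT) and Myd88 knockout mice, both on the C57BL/6 strain and labelled as females of 6 to 8 weeks, carried 1000000 injected tumour cells. Each genotype was given control IgG, an antibody to PD-1 (an inhibitory receptor of T cells), the oral bacterium LGG, or anti-PD-1 with LGG, called the combination here. Treatment started 7 to 10 days after injection at a tumour size of 100 mm3 and ran for 2 to 3 weeks, with 2 doses a week and 200 ug of antibody per mouse. No antibody is recorded for the groups given LGG alone, so LGG against IgG also compares no recorded antibody with control antibody. The knockout is recorded for the whole mouse, with no cell type restriction stated.

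AP-1 is a dimer. FOS proteins (Fos, Fosl2) bind DNA only with a partner, usually a JUN protein (Jun, Junb, Jund), while JUN proteins can also pair among themselves. BATF lacks an activation domain and pairs with JUN proteins, and in dendritic cells and T cells the pair binds composite sites with the interferon regulatory factors IRF4 or IRF8. MAF proteins divide into large ones such as Maf, which carry an activation domain and act in macrophages and T helper cells, and small ones such as Maff, which lack it and serve as partners of NRF2 and the BACH repressors at antioxidant genes. Several of the genes are immediate early genes, switched on within minutes by MAP kinase signals, which Toll-like receptors feed through the adaptor MYD88.

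The table holds normalised counts, that is, read counts divided by a factor for each library. Reads in listed genes ranged from 24531528 to 49272593 per library, and the members rested on between 137 reads (the lowest Maf value) and 28509 reads (the highest Junb value). Myd88 itself, the deleted gene, read 1723 to 2232 normalised counts over 12 wild-type libraries and 697.3 to 1837 over the 12 labelled knockout. The value of 1837, in replicate 3 under anti-PD-1, falls inside the wild-type range, and a count over the whole gene does not show a deleted exon. Against the label of female mice, 4 Y-linked genes lay between 190.7 and 2136 normalised counts in the 12 libraries labelled knockout and between 0 and 6.43 in the wild-type ones. Genotype therefore cannot be told apart from whatever goes with these genes. Among the libraries labelled knockout, 3 stand apart from their groups (replicates 2 and 3 under anti-PD-1, replicate 2 under LGG), and results that rest on them are given with and without them. That exclusion was chosen after seeing the data. Separate animals are not recorded for the 3 replicates of each group, so p-values measure only the spread between these libraries, which may be technical. In bulk samples fewer cells of a type and less RNA per cell cannot be told apart.

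Markers of the labelled cell type were present at levels that differed between groups, beside those of other cells. Itgax, which encodes CD11c, ranged from 9637 to 53698 normalised counts, and Flt3, a receptor of conventional dendritic cells, from 5.84 to 676, with a median of 70.9. With LGG in wild type these genes went opposite ways: Itgax averaged 23091 with IgG and 9828 with LGG, and Flt3 110 and 640. Under the knockout label Itgax averaged 36783 and 45009, and Flt3 8.09 and 50.4. Summed, 11 markers of conventional dendritic cells lay at 221271 to 248146 in wild-type IgG and 287122 to 337183 in wild-type LGG. Under the knockout label their sum was 216883 to 233506 in IgG and 241963 to 387715 in LGG. Ccr7 makes up most of the rise in wild type, at 6153 with IgG and 76466 with LGG. Of the 11 markers 5 rose there and 3 fell, Itgax, Sirpa (18302 to 12286) and Clec9a (213 to 23.7). Cd74, the highest of the 11, was 95269 to 104587 in IgG and 99344 to 199607 in LGG under the knockout label. The summed level of 12 macrophage and monocyte markers was 276201 to 298289 in wild-type IgG and 63782 to 70086 in wild-type LGG. It was 386831 to 431369 in IgG and 273789 to 375128 in LGG of the libraries labelled knockout. Lyz2 makes up most of these sums with IgG, and the other 11 markers summed to 107414 to 120683 in wild-type IgG, 32169 to 34634 in wild-type LGG, 91847 to 96719 in IgG under the knockout label and 74849 to 92745 in LGG there. Between genotypes under IgG the sum of the other 11 thus goes the opposite way to Lyz2. The summed level of 10 T cell markers was 15880 to 16787 in wild-type IgG against 6571 to 7091 in IgG of the libraries labelled knockout. Il7r made up most of the latter and went the other way, and the 9 others summed to 12985 to 13988 against 1051 to 1213. Of the marker genes listed, Ms4a1 (B cells) and Mpo (neutrophils) were at 0 in 1 library each, Ly6d (plasmacytoid cells) was at 0 in 5, and the others were above 0 in all 24.

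Windows of 250 bases before the start of transcription were available for 7 of the 8 genes (RefSeq, GRCm38.p6). Stretches of 4 genes are printed, since they hold the searched letters of Fos, which fell with LGG in wild type, and of Fosl2, Jun and Maff, which rose. The letters do not separate these directions. The Fos stretch is chr12:85473790-85473889 on the + strand, the 100 bases before its start, where the annotation holds no exon. Capitals mark a TGACG core of the cAMP response element and a TATAA box.
Fos: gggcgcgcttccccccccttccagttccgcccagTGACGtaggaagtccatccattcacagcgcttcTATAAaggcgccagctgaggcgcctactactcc
The Fosl2 stretches are chr5:32136242-32136271 and chr5:32136276-32136305 on the + strand, before the RefSeq start and inside the 5′ UTR of a longer GENCODE M21 transcript. Capitals mark an interferon-stimulated element in the first and 2 overlapping kappaB matches in the other.
Fosl2, distal: ccggcagctTTTCTTTTTCgcctttttggc
Fosl2, proximal: tgagagatcggggaGGGAGTCCCCCagagc
The Jun stretch is chr4:95052223-95052342 on the - strand, opposite to an intron of the antisense gene Junos. Capitals mark the Jun-type AP-1 site, the letters through which the gene is known to respond to its own product.
Jun: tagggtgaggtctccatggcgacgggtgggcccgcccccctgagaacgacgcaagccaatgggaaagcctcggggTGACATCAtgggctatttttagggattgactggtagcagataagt
Maff has 3 annotated starts. The printed stretches precede the second and the last of them, at chr15:79347440-79347519 and chr15:79348302-79348371 on the + strand, both in introns of other Maff transcripts. Capitals mark a cAMP response element in the first, and a kappaB match followed by a Jun-type AP-1 site in the other.
Maff, second start: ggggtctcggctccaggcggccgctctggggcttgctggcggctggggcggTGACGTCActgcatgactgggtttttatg
Maff, last start: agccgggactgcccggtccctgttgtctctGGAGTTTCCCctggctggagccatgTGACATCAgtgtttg

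The same search was run over 32851 windows of 250 bases on both strands (TATAA on the gene's strand only). The AP-1 site (TGACTCA or TGAGTCA) was in 4.46% of them and in none of the members' windows. The cAMP response element (TGACGTCA) was in 1.55%, its core (TGACG or CGTCA, which overlaps it) in 17.8%, and the Jun-type site (TGACATCA or TGATGTCA) in 2.93%. The kappaB site was in 3.90%, the interferon-stimulated element (GAAANNGAAA or TTTCNNTTTC) in 2.98% and TATAA in 16.0%. The CArG box, bound by serum response factor, was in 1.47% and the GAS element (TTCNNNGAA), bound by STAT dimers, in 7.02%, and neither was in a window of a member. A kappaB match also lay 214 bases before the Fos start, and cores of the cAMP response element lay 129 bases before Fos, 106 before Junb and 98 before Batf. No searched letters were found in the Jund window, which precedes the RefSeq start at chr8:70697739, 1210 bases before the GENCODE start of the gene used for its level here. A match is a description of the letters, not a site shown to be bound.

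Per kilobase of exon, which allows genes to be compared, Jund and Junb were the highest of the 8 in wild-type IgG, at 4534 and 4319 normalised counts per kilobase, and their libraries overlapped. The place of Jund rests on its GENCODE exonic length of 1668 bases, and the earlier RefSeq start could give a longer length and a lower level. Fos followed at 2234, Jun at 1210, Batf at 892, Fosl2 at 298, Maff at 209 and Maf at 65.6, with no overlap between neighbours. With LGG the wild-type order became Junb at 12483, Jund at 4921, Jun at 1965, Batf at 1920, Maff at 927, Fosl2 at 767, Fos at 467 and Maf at 44.9, and only Jun and Batf overlapped. Fos, the third of the 8 with IgG, was the seventh with LGG. In IgG of the libraries labelled knockout Fos was first at 5314, overlapping Junb at 5042, and with LGG it was the third at 3363, overlapping Jund at 4117. Maf was the lowest in all 8 groups by this measure, which depends on the annotated exonic length.

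**Figure D1:**
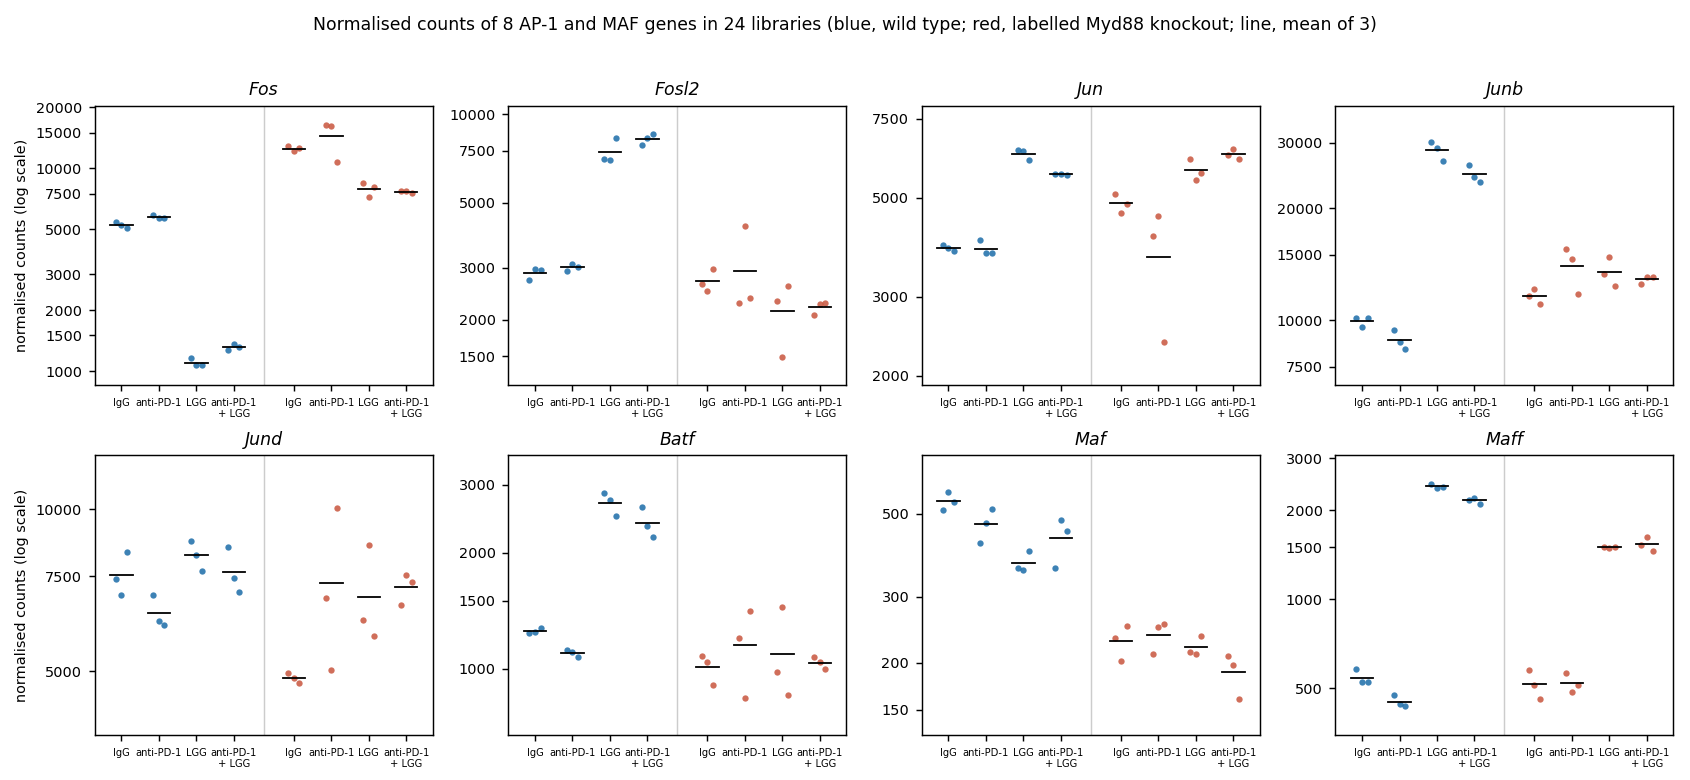
Normalised counts (log scale) of each gene in all 24 libraries, with points for libraries and a line for the mean of 3, by treatment in wild type (left of each panel) and in libraries labelled knockout (right). Fos lay between 1067 and 1355 in the 6 wild-type libraries with LGG and between 5077 and 5867 in the 6 without it, while Maff rose with LGG in both genotypes.

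LGG against IgG compares libraries from mice given the bacterium with those from mice given control antibody. In wild-type libraries 5 of 8 members rose and 2 fell (limma, adjusted p below 0.05), where 27.4% of the 12749 tested genes rose and 28.2% fell. The median log2 difference was 0.90 over the members and -0.0032 over all tested genes. The members were chosen with earlier results of these data known, so setting them beside all genes is a description, not a test. In the libraries labelled knockout 2 rose and 1 fell, where 18.1% of all genes rose and 14.2% fell, and the medians were 0.15 and 5.66e-05. LGG and IgG libraries did not overlap for 7 of 8 members and 74.5% of all tested genes in wild type. Under the knockout label this held for 5 of 8 members and 41.0% of genes. The combination against anti-PD-1, whose estimates come from other libraries, called 5 members up and 1 down in wild type, against 27.7% and 29.1% of all genes, and 2 up and 2 down in the libraries labelled knockout, against 19.7% and 17% of all genes.

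Markers of other cells moved in the same comparisons. With LGG in wild type, 5 of 11 conventional dendritic cell markers rose and 3 fell, 3 of 10 T cell markers rose and 1 fell, 3 of 6 B cell markers rose and 1 fell, 2 of 5 NK markers rose and 1 fell, and 3 of 6 neutrophil markers fell. Under the knockout label 5 of 11 dendritic cell, 10 of 10 T cell, 5 of 6 B cell, 5 of 5 NK and 4 of 4 plasmacytoid markers rose, and 3 of 6 neutrophil markers rose and 1 fell. T cell markers other than Il7r summed to 3872 to 5718 with LGG there. For the combination against anti-PD-1 in wild type, 2 of 12 macrophage markers rose and 9 fell, while 5 of 11 dendritic cell markers rose and 3 fell. There 5 of 10 T cell, 5 of 6 B cell and 3 of 4 plasmacytoid markers rose, 4 of 5 NK markers rose and 1 fell, and 1 of 6 neutrophil markers rose and 2 fell. Under the knockout label 1 of 12 macrophage markers rose and 6 fell, and 5 of 11 dendritic cell, 8 of 10 T cell, 2 of 5 NK and 0 of 4 plasmacytoid markers rose, while 1 of 6 B cell and 1 of 6 neutrophil markers rose and 1 of each fell. The part of these markers in the members' results was not tested.

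Fos (ENSMUSG00000021250, chr12:85473890-85477273, + strand, GRCm38), the founding member of its family and an immediate early gene, fell. In wild-type IgG its libraries held 5415, 5271 and 5077 normalised counts, and in wild-type LGG 1161, 1068 and 1067. The groups lay far apart, and Fos fell by 2.26 ± 0.11 on the log2 scale (adjusted p = 7.14e-13, limma), which is 4.78-fold. Among libraries labelled knockout, the values were 12809, 12129 and 12560 with IgG and 8440, 7228 and 8064 with LGG. Here too no libraries overlapped, and Fos fell by 0.66 ± 0.11 (adjusted p = 7.53e-05), or by 0.60 without the 3 libraries that stand apart (adjusted p = 2.16e-09). Under anti-PD-1, Fos went from 5741 ± 110 (SD, n = 3) to 1314 ± 38.7 with the combination in wild type, a fall by 2.13 ± 0.11 (adjusted p = 1.67e-12). Under the knockout label it went from 14388 ± 3115 to 7665 ± 97.5, a fall by 0.88 ± 0.11 (adjusted p = 2.6e-06). Without the 3 libraries that stand apart that fall was by 1.09 (adjusted p = 1.51e-11), against the single anti-PD-1 library that is left, whose spread is assumed to be that of the other groups. The same holds wherever anti-PD-1 under the knockout label is compared without those 3.

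Macrophage markers moved beside Fos with LGG: 9 of 12 fell and 1 rose in wild type, and 4 of 12 fell and 1 rose in the libraries labelled knockout. Under IgG, where Fos was higher with the knockout label, 3 of 12 were higher and 5 lower. Their part in the fall of Fos was not tested. The genes whose pattern was most like that of Fos over the 24 libraries were Atp6v0d2, a proton pump subunit of macrophages and osteoclasts, Igf1, a growth factor, and Lyz2, the lysozyme gene of myeloid cells. Likeness was measured as the mean absolute difference of log2 values after each gene's own mean was subtracted, and it was 0.20 for each. Lyz2 went from 174710 to 34185 normalised counts with LGG in wild type and from 317607 to 235986 in the libraries labelled knockout.

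Fosl2 (ENSMUSG00000029135, chr5:32135801-32157842, + strand) encodes FRA-2, a FOS protein without the strong activation domain of Fos. Its level in wild type was 2735, 2983 and 2942 with IgG and 7019, 6981 and 8270 with LGG. No library of one group reached the other, and Fosl2 rose by 1.36 ± 0.19 on the log2 scale (adjusted p = 3.72e-06, limma), or 2.56-fold. With the knockout label it was 2651, 2509 and 2964 with IgG and 2310, 1497 and 2612 with LGG. These groups overlapped, and the difference of -0.38 ± 0.19 did not pass (adjusted p = 0.14). It was -0.14 without the 3 libraries that stand apart (adjusted p = 0.139), but passed at -0.54 without LGG replicate 3 (adjusted p = 0.0473), at -0.38 without anti-PD-1 replicate 2 (adjusted p = 0.0324) and at -0.20 with array weights (adjusted p = 0.00425). The weights of those LGG libraries were 8.37, 0.084 and 0.40 for replicates 1, 2 and 3. The array-weight value thus rests mostly on replicate 1. With the combination Fosl2 rose by 1.45 ± 0.19 in wild type (adjusted p = 1.57e-06) and differed by -0.35 ± 0.19 in the libraries labelled knockout (adjusted p = 0.145). The latter was -0.041 without the 3 libraries that stand apart (adjusted p = 0.749) and -0.069 without anti-PD-1 replicate 2 alone. Irs2, an insulin receptor substrate, Bmp2k, a kinase, and Inpp5b, an inositol phosphatase, were closest to it in pattern, at 0.13, 0.14 and 0.15.

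Of the JUN genes, Junb (ENSMUSG00000052837, chr8:84974484-84978718, - strand) had the largest difference in wild type. Its protein is a weaker activator than JUN and can restrain it. Junb held 10140, 9563 and 10110 normalised counts with IgG and 30233, 29153 and 26785 with LGG, a rise by 1.53 ± 0.09 (adjusted p = 3.69e-11, limma), or 2.89-fold, with no overlap. In the libraries labelled knockout it held 11608, 12125 and 11074 with IgG and 13342, 14812 and 12337 with LGG. All 3 LGG values were the higher, but the difference of 0.22 ± 0.09 did not pass (adjusted p = 0.0913), nor did that of 0.15 without the 3 libraries that stand apart (adjusted p = 0.0559). Array weights, which rest mostly on LGG replicate 1 here, called it at 0.19 (adjusted p = 0.000345), and DESeq2 called it at 0.23 (adjusted p = 0.0394). So did the fits without anti-PD-1 replicate 3 (0.22, adjusted p = 0.0255) and without LGG replicate 3 (0.28, adjusted p = 0.0499). The combination against anti-PD-1 raised Junb by 1.48 ± 0.09 in wild type (adjusted p = 5.57e-11). Among libraries labelled knockout, it differed by -0.11 ± 0.09 (adjusted p = 0.383). Without the 3 libraries that stand apart, against 1 anti-PD-1 library and with the spread of the other groups, it was at -0.27 (adjusted p = 0.00751), and without anti-PD-1 replicate 3 alone at -0.23 (adjusted p = 0.0397). The 3' end of Junb overlaps that of Prdx2 on the other strand, and the labels do not say whether counting used strand.

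Jun (ENSMUSG00000052684, chr4:95049034-95052222, - strand), the strongest activator of its family, also rose there. It held 3918, 3850 and 3808 with IgG and 6391, 6347 and 6063 with LGG in wild type, a rise by 0.70 ± 0.14 (adjusted p = 0.000354, limma) with no overlap. Under the knockout label it held 5099, 4612 and 4839 with IgG and 6087, 5484 and 5673 with LGG. These did not overlap either, yet the difference of 0.24 ± 0.14 did not pass (adjusted p = 0.217). It passed at 0.28 without the 3 libraries that stand apart (adjusted p = 9.06e-05) and at 0.24 without anti-PD-1 replicate 3 alone (adjusted p = 0.00161). With array weights, which rest mostly on LGG replicate 1 here, it passed at 0.29 (adjusted p = 1.7e-06). The combination raised Jun against anti-PD-1 in both genotypes, by 0.55 ± 0.14 in wild type (adjusted p = 0.00278) and by 0.82 ± 0.14 in the libraries labelled knockout (adjusted p = 0.000171). The latter rests partly on 1 anti-PD-1 library at 2384 normalised counts, replicate 3, where the other two held 4100 and 4542. Without that library the value was 0.53, without all 3 that stand apart it was 0.61 (adjusted p = 1.31e-07), and in a fit restricted to these 6 libraries 0.82 did not pass (adjusted p = 0.101). Reads of Jun and of its antisense partner Junos cannot be told apart where counting ignores strand, and the same holds for Jund and Maf and their antisense partners Gm11175 and Gm15655. Tspan3, Ppp2r5b and Bcl2l2 were closest to Jun in pattern, at 0.082, 0.084 and 0.094, and March5, Cdkn1a and Slc9a3r1 to Junb, at 0.14 each.

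Jund (ENSMUSG00000071076, chr8:70698949-70700616, + strand), which is expressed in most resting cells, held 7418, 6935 and 8336 with IgG and 8729, 8212 and 7683 with LGG in wild type. The groups overlapped and the difference of 0.12 ± 0.18 did not pass (adjusted p = 0.587, limma). With the knockout label Jund held 4975, 4859 and 4765 with IgG and 6220, 8565 and 5818 with LGG, a rise by 0.48 ± 0.18 (adjusted p = 0.0441). The highest value is that of a library that stands apart, LGG replicate 2. Without it Jund was at 0.31 and did not pass (adjusted p = 0.187), without all 3 such libraries the same 0.31 passed (adjusted p = 0.00372), and the call was lost in 19 of 24 fits that left out 1 library. It was also lost with a replicate block (adjusted p = 0.0609) and when the fit held the 6 libraries only (adjusted p = 0.0776). The combination against anti-PD-1 gave 0.25 ± 0.18 in wild type (adjusted p = 0.232) and 0.03 ± 0.18 in the libraries labelled knockout (adjusted p = 0.911), or 0.067 without the 3 libraries that stand apart (adjusted p = 0.616). In wild type the same 0.25 passed in a fit of the 6 libraries (adjusted p = 0.00652) and without the 3 that stand apart (adjusted p = 0.00496). Tuba4a, a tubulin, H2-Ab1, a chain of MHC class II, and Ppp2r3d were closest to Jund in pattern, at 0.078, 0.082 and 0.085.

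Batf (ENSMUSG00000034266, chr12:85686669-85709087, + strand), which acts with its relative Batf3 in dendritic cell development, rose in wild type. It held 1242, 1244 and 1275 normalised counts with IgG and 2862, 2744 and 2492 with LGG, a rise by 1.10 ± 0.16 (adjusted p = 9.06e-06, limma), or 2.15-fold, with no overlap. In the libraries labelled knockout it held 1076, 1044 and 908.7 with IgG and 981.2, 1446 and 856.1 with LGG. These overlapped, with a difference of 0.08 ± 0.16 (adjusted p = 0.754) that became -0.14 without the 3 libraries that stand apart (adjusted p = 0.16). With the combination the differences were a rise by 1.11 ± 0.16 in wild type (adjusted p = 7.52e-06) and -0.12 ± 0.16 in the libraries labelled knockout (adjusted p = 0.588), which was -0.21 without the 3 (adjusted p = 0.0917). Of its partners, Irf8, a factor of conventional and plasmacytoid dendritic cells, rose from 5261 to 34900 normalised counts in wild type (2.73 on the log2 scale) and by 0.28 in the libraries labelled knockout. Irf4, which acts in the other conventional subset, rose by 1.20 and 0.70. Supt4a, Tmem110 and Slc25a38 were the genes closest to Batf in pattern, at 0.089, 0.093 and 0.099. Among the members Batf was closest to Junb, further off at 0.25. Plasmacytoid markers moved beside Batf and Irf8 in wild type, where 3 of 4 rose and their sum, most of it Bst2, went from between 8128 and 9156 to between 27651 and 32547. The other 3 summed to 625 to 691 and to 1475 to 1693. Of these, Tcf4 averaged 616 and 1489, Ly6d 5.20 and 40.1, and Ccr9 26.3 and 26.9. Siglech, also chosen as a plasmacytoid marker, was not among the listed genes. The part of these markers in these results was not tested.

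Maff (ENSMUSG00000042622, chr15:79346621-79359076, + strand) showed the largest rise of the 8 and passed in both genotypes. It held 579.1, 524 and 524.1 normalised counts with IgG and 2451, 2379 and 2387 with LGG in wild type, a rise by 2.15 ± 0.08 (adjusted p = 1.17e-14, limma), or 4.43-fold. Among libraries labelled knockout, it held 573.7, 513 and 459.4 with IgG and 1503, 1493 and 1502 with LGG, a rise by 1.54 ± 0.08 (adjusted p = 1.51e-11), or 2.92-fold. The lowest LGG library was far above the highest IgG library in each genotype, and without the 3 that stand apart the second value was 1.55. Against anti-PD-1 the combination raised Maff by 2.26 ± 0.08 (adjusted p = 4.93e-15) and 1.56 ± 0.08 (adjusted p = 1.15e-11), the latter 1.45 without the 3 (adjusted p = 1.67e-10). Mreg, which encodes melanoregulin, was closest to it in pattern at 0.10, followed by Tnip1, an inhibitor of NF-kB signalling, and Arl5c, both at 0.17.

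Maf (ENSMUSG00000055435, chr8:115682942-115707794, - strand) was lower with LGG in wild type. It held 511.6, 572.8 and 537.7 with IgG and 357.8, 353.7 and 397.4 with LGG, and fell by 0.55 ± 0.13 (adjusted p = 0.000982, limma) with no overlap. Under the knockout label it held 233.4, 202.2 and 250.6 with IgG and 213.2, 211.1 and 236.1 with LGG, which overlapped, with a difference of -0.05 ± 0.13 (adjusted p = 0.808), or -0.022 without the 3 libraries that stand apart (adjusted p = 0.896). The combination against anti-PD-1 gave -0.13 ± 0.13 in wild type (adjusted p = 0.403). With the knockout label Maf fell by 0.34 ± 0.13 (adjusted p = 0.043), a call that was lost in 5 of 9 other settings and in 11 of 24 fits without 1 library. Without the 3 libraries that stand apart it was -0.17 (adjusted p = 0.414).

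**Figure D2:**
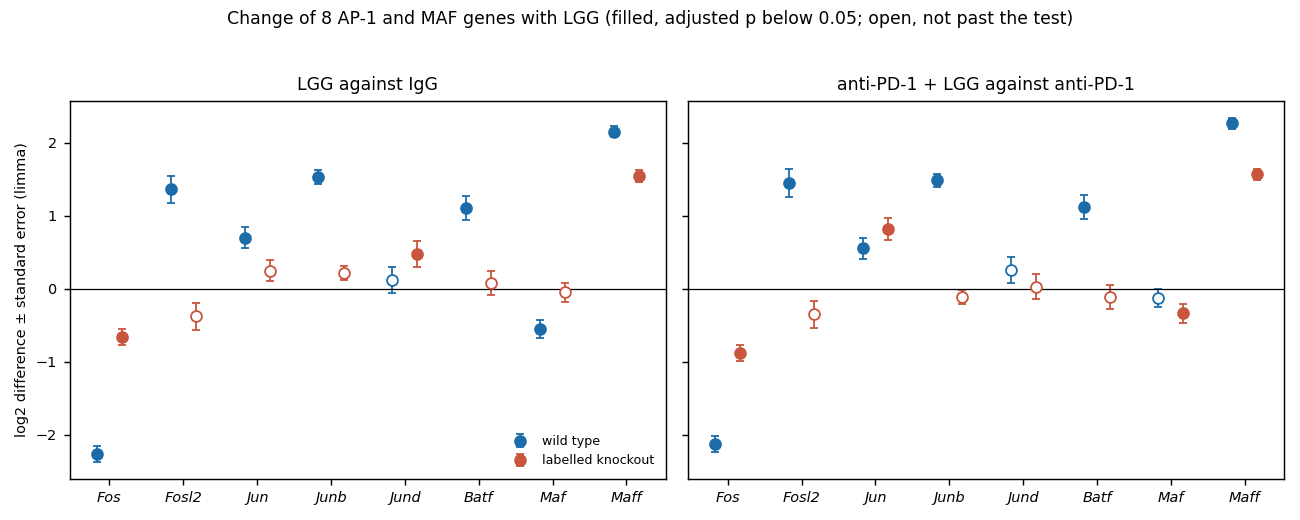
Log2 difference with its standard error for each gene with LGG against IgG (left) and the combination against anti-PD-1 (right), in wild type (blue) and in libraries labelled knockout (red). Filled points passed the test: Fosl2, Junb and Batf lay between 1.10 and 1.53 in wild type and at or below 0.22 in the libraries labelled knockout, while Maff lay between 1.54 and 2.26.

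Ratios within each family, taken inside each library and per kilobase, describe the balance of its members. In wild-type IgG the Fos to Fosl2 ratio was 7.51 ± 0.56 (SD, n = 3), and with LGG it was 0.614 ± 0.076, so Fosl2 was the more abundant. With anti-PD-1 the ratio was 7.85 and with the combination 0.659. In the libraries labelled knockout Fos remained the more abundant at 19.1 ± 1.4 with IgG, 21.4 ± 7.1 with anti-PD-1, 15.9 ± 3.7 with LGG and 14.3 ± 0.85 with the combination. Junb took 43.0% ± 1.3 of the summed Jun, Junb and Jund level in wild-type IgG and 64.4% ± 0.28 with LGG. Among libraries labelled knockout, its share was 53.2% ± 1.3 with IgG and 49.9% ± 1.2 with LGG. Maff exceeded Maf 3.20 ± 0.36 times in wild-type IgG and 20.7 ± 1.4 times with LGG, and in the libraries labelled knockout 7.23 ± 1.2 and 21.7 ± 1.3 times. Before division by length, Maff and Maf averaged 542.4 and 540.7 normalised counts in wild-type IgG. The ratio of 3.20 thus rests on their annotated exonic lengths of 2594 and 8241 bases. These ratios follow from the levels above and were not tested again.

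**Figure D3:**
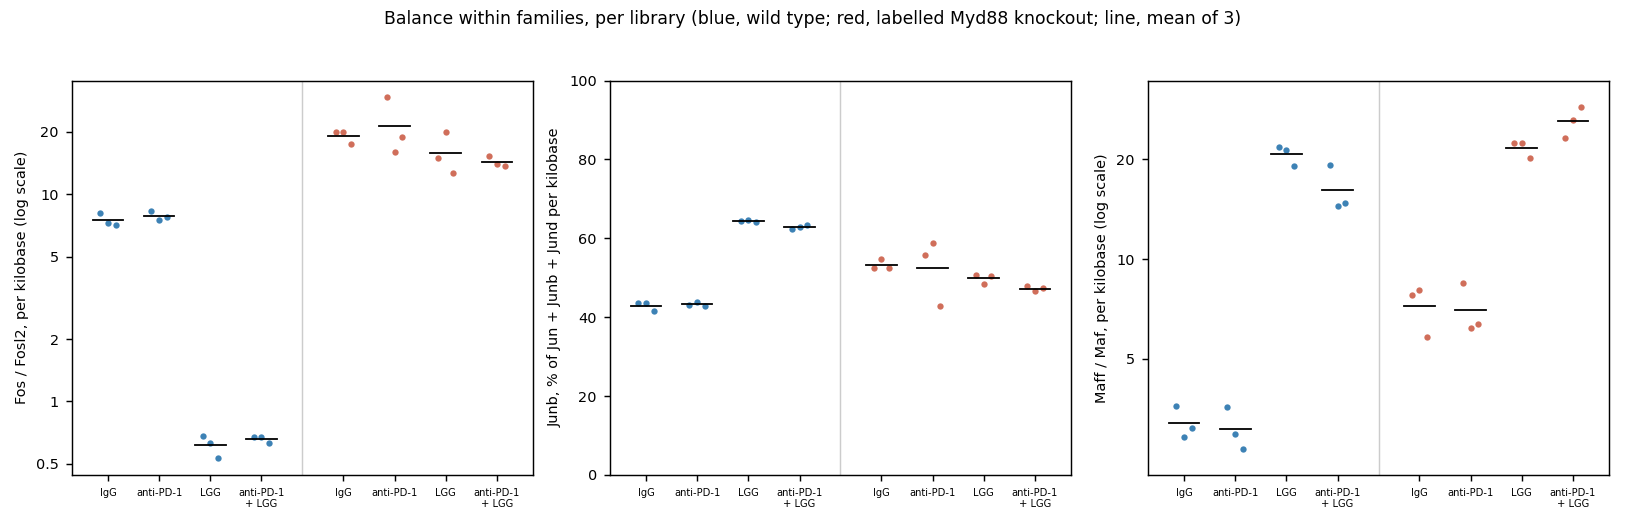
Ratios per kilobase of exon in each library (points) with the mean of 3 (line): Fos to Fosl2 (log scale), Junb as a percentage of the 3 JUN genes, and Maff to Maf (log scale). The Fos to Fosl2 ratio was between 0.531 and 0.681 in the 6 wild-type libraries with LGG and 12.7 or more in all libraries labelled knockout, while the Maff to Maf ratio was higher with LGG in both.

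The difference of the LGG effect between genotypes tests these contrasts directly, with the limit from the Y-linked genes given above. Of the 8 members, 2 were higher and 4 lower in the libraries labelled knockout (knockout minus wild type), where 19.5% and 15.4% of all genes were. Fosl2 differed by -1.73 ± 0.26 (adjusted p = 3.39e-05, limma), Junb by -1.31 ± 0.13 (adjusted p = 2.1e-07), Batf by -1.02 ± 0.23 (adjusted p = 0.00168) and Maff by -0.60 ± 0.11 (adjusted p = 0.000249). The fall of Fos was smaller in the libraries labelled knockout by 1.59 ± 0.15 (adjusted p = 9.52e-08). Maf, whose fall passed in wild type only, differed by 0.50 ± 0.18 (adjusted p = 0.036). Without the 3 libraries that stand apart all 6 passed, Fosl2 at -1.50, Junb at -1.38, Batf at -1.24, Maff at -0.60, Fos at 1.66 and Maf at 0.53. The Maf call was lost in 7 of 24 fits without 1 library, with a highest adjusted p of 0.103. Jun at -0.45 ± 0.20 (adjusted p = 0.0927) and Jund at 0.36 ± 0.25 (adjusted p = 0.293) did not pass. Jun passed at -0.42 without the 3 libraries that stand apart (adjusted p = 2.06e-05) and at -0.45 in a fit of the 4 groups alone (adjusted p = 0.00212). Leaving out anti-PD-1 replicate 2 or 3 alone gave it an adjusted p of 0.0335 or 0.000114, since the spread is taken from all 24 libraries. Jund was at 0.19 without the 3 (adjusted p = 0.16). In the same test 9 of 12 macrophage markers were higher and 1 lower (median 2.19), 6 of 10 T cell, 4 of 5 NK, 2 of 6 B cell and 3 of 6 neutrophil markers were higher, 3 of 11 dendritic cell markers were higher and 3 lower, and 1 of 4 plasmacytoid markers was higher and 1 lower. Their part in the members' differences was not tested.

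In the same test of the combination against anti-PD-1, 1 member was higher and 4 were lower, where 20.5% and 17.2% of all genes were. Fos differed by 1.24 ± 0.15 (adjusted p = 2.27e-06, limma), Fosl2 by -1.80 ± 0.26 (adjusted p = 2.07e-05), Junb by -1.59 ± 0.13 (adjusted p = 1.43e-08), Batf by -1.23 ± 0.23 (adjusted p = 0.000282) and Maff by -0.70 ± 0.11 (adjusted p = 5.13e-05). Each of these 5 had the same sign in the first test. The estimates come from separate libraries, but both tests take their spread from the same fit to all 24, so the tests are not independent. Without the 3 libraries that stand apart, which leaves 1 library under anti-PD-1 alone and assumes that it varies like the other groups, the values were 1.04, -1.49, -1.76, -1.33 and -0.81, and all 5 passed. Jun at 0.27 ± 0.20 (adjusted p = 0.317), Jund at -0.22 ± 0.25 and Maf at -0.21 ± 0.18 did not pass. These were at 0.054 (adjusted p = 0.577), -0.19 and -0.038 without the 3 libraries. Jun was at -0.019 without anti-PD-1 replicate 3 and passed at 0.45 without replicate 2 (adjusted p = 0.0381). In this test 9 of 12 macrophage markers were higher and 1 lower (median 1.93), 3 of 11 dendritic cell markers were higher and 5 lower, 2 of 10 T cell and 1 of 6 neutrophil markers were higher, 2 of 5 NK markers were higher and 1 lower, and 4 of 6 B cell and 2 of 4 plasmacytoid markers were lower. Their part was not tested.

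Libraries labelled knockout already differed from wild type under IgG, with 1 member higher and 2 lower, where 19.1% of all genes were higher and 20% lower. Fos was higher by 1.25 ± 0.11 on the log2 scale (adjusted p = 1.66e-08, limma), or 2.38-fold, from 5254 ± 170 to 12500 ± 344 normalised counts. Maf was lower, with a difference of -1.24 ± 0.13 (adjusted p = 1.6e-07) from 540.7 ± 30.7 to 228.7 ± 24.5. Jund was lower as well at -0.63 ± 0.18 (adjusted p = 0.00734), from 7563 ± 711 to 4866 ± 105. None of these overlapped, but the same held for 6 of 8 members and for 66.7% of all tested genes. Jun at 0.33 ± 0.14 (adjusted p = 0.0784), Junb at 0.22 ± 0.09 (adjusted p = 0.0693) and Batf at -0.32 ± 0.16 (adjusted p = 0.135) did not pass here. In a fit of these 6 libraries alone they did, with an adjusted p of 0.000309, 0.00524 and 0.00269, and likewise without the 3 libraries that stand apart. Without anti-PD-1 replicate 3 alone Jun and Junb passed (adjusted p = 8.23e-05 and 0.018), without replicate 2 Jun did (adjusted p = 0.0273), and Junb passed with a replicate block (adjusted p = 0.045). Fosl2 at -0.09 ± 0.19 and Maff at -0.08 ± 0.08 were the closest to 0. Markers of other cells moved with this comparison: 9 of 10 T cell markers were lower and 1, Il7r, higher, and 5 of 5 NK, 6 of 6 B cell, 5 of 6 neutrophil and 3 of 4 plasmacytoid markers were lower. Of 12 macrophage markers 3 were higher and 5 lower, and of 11 dendritic cell markers 4 were higher and 3 lower. Summed NK markers were 12907 to 13277 in wild type and 912 to 1107 in the libraries labelled knockout. Maf is also expressed in T cells, and the part of all these markers in the members' differences was not tested. Nup210, a nuclear pore gene, Lgalsl and Nemp2 were the genes closest to Maf in pattern, at 0.12, 0.12 and 0.15.

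Anti-PD-1 against IgG called none of the 8 members in either genotype. Of all tested genes 0.00784% rose and 0.0235% fell in wild type, and 1.09% rose and 0.706% fell in the libraries labelled knockout. By limma, 1 member in wild type had an unadjusted p under 0.05, Maff at -0.27 ± 0.08, with 0 called by edgeR and 1 by DESeq2. Under the knockout label 3 did, Jun at -0.45 ± 0.14, Junb at 0.26 ± 0.09 and Jund at 0.53 ± 0.18, with 0 called by edgeR and 1 by DESeq2. Array weights, which give libraries that stand apart less weight, called 4 members in each genotype. Under the knockout label the weights of anti-PD-1 replicates 1, 2 and 3 were 2.26, 0.058 and 0.061. The array-weight calls there thus rest mostly on replicate 1. Without the 3 that stand apart Maff passed in wild type (adjusted p = 0.0217), and in the libraries labelled knockout Fos at 0.38, Jun at -0.24, Junb at 0.43 and Jund at 0.49 passed. The latter 4 compare a single anti-PD-1 library with IgG and borrow their spread from the other groups. In a fit of the 6 wild-type libraries alone Junb at -0.17, Jund at -0.24, Batf at -0.19 and Maff at -0.27 passed, with an adjusted p of 0.0325 to 0.0436. Leaving out anti-PD-1 replicate 3 of the libraries labelled knockout gave calls for Fos at 0.37 (adjusted p = 0.00565) and Junb at 0.38 (adjusted p = 0.0313). Leaving out replicate 2 gave calls for Jun at -0.63 (adjusted p = 0.00687) and Jund at 0.77 (adjusted p = 0.0051), and leaving out replicate 1 for Jun at -0.56 (adjusted p = 0.042).

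Adding anti-PD-1 to LGG, the combination against LGG alone, also called none of the members. Of all genes 0.0392% rose and 0.0235% fell in wild type, and 0.0941% and 0.18% in the libraries labelled knockout. In wild type 2 members had an unadjusted p under 0.05 by limma, Fos at 0.26 ± 0.11 and Junb at -0.22 ± 0.09, with 0 calls by edgeR and 0 by DESeq2. Fos was 1278, 1355 and 1310 with the combination, above all 3 LGG libraries, and Junb at 26132, 24361 and 23626 lay below them. Jun and Maff did not overlap either, which makes 4 of 8 members, where 25.4% of all tested genes did not overlap. Fos and Junb passed without the 3 libraries that stand apart (adjusted p = 0.00232 and 0.0282), as did Jun at -0.15 (adjusted p = 0.0435). With the knockout label 0 members had an unadjusted p under 0.05, 0 were called by edgeR and 0 by DESeq2.

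Relatives outside the 8 were counted from lists. Of 10 other AP-1 and ATF genes, 7 rose and 1 fell with LGG in wild type, and 3 rose and 1 fell in the libraries labelled knockout, with medians of 0.67 and 0.0081. Fosl1, which encodes FRA-1, rose from 17.0 to 127 normalised counts in wild type (2.84 on the log2 scale) and by 1.02 in the libraries labelled knockout. Fosb, the closest relative of Fos, fell by 1.06 with LGG in wild type but rose by 0.35 among libraries labelled knockout, where it was also 1.37 higher under IgG. Atf3, a stress-induced repressor, rose by 1.27 in wild type and was at 0.17 without passing in the libraries labelled knockout. Batf2 rose by 1.31 and 0.69. Of 10 other MAF, CNC and BACH genes, 3 rose and 5 fell in wild type and 2 rose and 2 fell in the libraries labelled knockout, with medians of -0.42 and 0.096. Nfe2, a partner of small MAF proteins, fell by 1.83 and 1.67.

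Kinases upstream of AP-1 were counted next. Of 24 MAP kinase cascade genes, 8 rose, 2 fell and 14 did not pass in wild type with a median of 0.15, and 6 rose, 2 fell and 16 did not pass in the libraries labelled knockout. Map3k14, the NF-kB inducing kinase, rose by 1.76 and 0.74, and Mapk14, which encodes p38, fell by 1.34 in wild type. Of 9 MAP kinase phosphatases, 4 rose and 2 fell in wild type with a median of 0.68, and 6 rose and 2 fell in the libraries labelled knockout with a median of 0.85. Dusp16 rose by 2.28 and 1.01 and Dusp5 by 1.82 and 0.85, while Dusp6, which acts on ERK, fell by 1.48 and 0.69. Serum response and ternary complex factors drive Fos through its CArG box. The search above covered 250 bases before each start, so a box further upstream lay outside it. Of 6 such factors, 2 rose and 2 fell in wild type and 0 rose and 1 fell in the libraries labelled knockout. Srf itself was at -0.10 without passing in wild type, and fell by 0.30 in the libraries labelled knockout.

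Of 17 other immediate early genes, 8 rose and 7 fell with LGG in wild type, and 7 rose and 5 fell in the libraries labelled knockout, with medians of 0.28 and 0.068. Csrnp1 rose by 2.08 and 0.77, Nr4a3, a nuclear receptor, by 1.70 and 1.54, and Arc by 2.29 and 1.53. Immediate early and heat shock genes can also respond to tissue handling. Of 10 heat shock genes, 7 rose and 1 fell in wild type and 3 rose and 2 fell in the libraries labelled knockout, with Hspa1b from 23.8 to 351 normalised counts in wild type (3.85 on the log2 scale) and Hspd1 falling by 1.18. Their part in the members' results was not tested.

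Genes known as targets were counted in the same way. Of 15 textbook AP-1 targets, 8 rose and 5 fell in wild type with a median of 0.35, and 6 rose and 2 fell in the libraries labelled knockout with a median of 0.28. Mmp13, a collagenase, rose by 2.93 and 0.68, and Plau, which encodes urokinase, fell by 1.94 in wild type but rose by 0.60 among libraries labelled knockout. Of 13 antioxidant genes of NRF2 and small MAF, 8 rose and 2 fell in wild type with a median of 1.12, and 10 rose and 0 fell in the libraries labelled knockout with a median of 1.07. Slc7a11, the cystine transporter, rose by 2.64 and 2.67, Srxn1 by 1.48 and 1.49 and Hmox1, heme oxygenase 1, by 3.33 and 2.42. The difference between genotypes did not pass for Slc7a11 (0.04) or Srxn1 (0.01), and for Hmox1 it was -0.91 and passed. Of 10 MAF-dependent macrophage genes, 1 rose and 8 fell in wild type with a median of -3.42, and 2 rose and 3 fell in the libraries labelled knockout with a median of -0.30. C1qc, a complement gene, fell by 3.42 in wild type and was at -0.41 without passing in the libraries labelled knockout. The list shares Mrc1 and the C1q genes with the macrophage markers above.

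**Figure D4:**
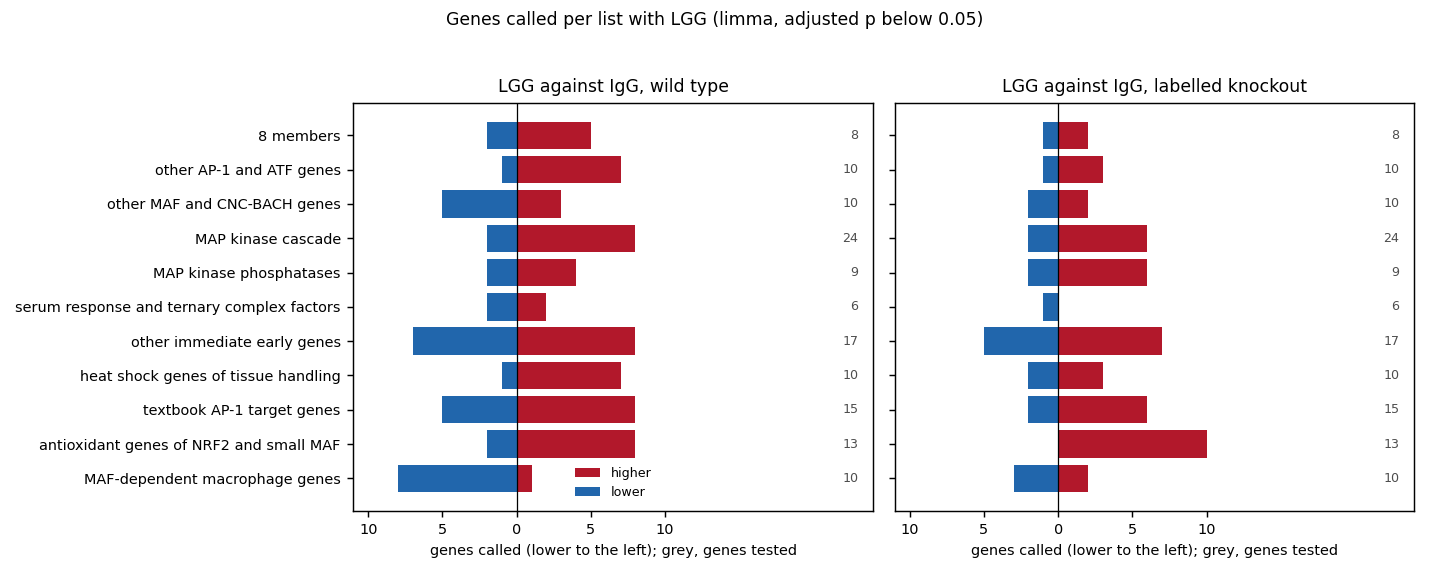
Number of genes per list that were higher (red, right) or lower (blue, left) with LGG against IgG, in wild type and in libraries labelled knockout, with the number of genes tested in grey. In wild type 8 of 10 MAF-dependent macrophage genes fell, and antioxidant genes rose in both, 8 of 13 and 10 of 13.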

How the data were processed

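Bulk RNA-seq of 24 libraries, 3 in each of 8 groups, gave 1 deposited table. STAR 2.4.0, HTSeq 0.6.1 and DESeq2, with the mm10 build, are the tools named per the submitters' processing notes. Its values are a normalised signal: within a library the deposited values are whole multiples of 1 step, and dividing by it gave whole numbers (tolerance 0.001) for 100% of values. The count tests used these reads. Levels were analysed as log2(value + 1), keeping 12749 genes whose mean reached 10. Comparisons used limma 3.58.1 (R 4.3.3), fitted to the 24 libraries with a mean for each group and moderated variances (trend, robust), two-sided, with Benjamini-Hochberg adjustment over all tested genes within each comparison and calls below an adjusted p of 0.05. Errors after log2 values are standard errors. Fold changes are on the log2(value + 1) scale. Gene coordinates and exonic lengths come from GENCODE M21 (GRCm38), where 12765 genes matched by identifier, and promoters from RefSeq.

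Alternatives were a pseudocount of 8, no filter, TMM scaling, array weights, only the groups compared, a replicate block, edgeR 4.0.16, DESeq2 1.42.0 and each library left out. Leaving out the 3 libraries that stand apart was chosen after seeing the data. All 8 members are named. From each list up to 4 genes with the smallest p in wild type and up to 2 in the libraries labelled knockout (LGG against IgG) could be named, and per member the 3 genes of most similar pattern. The members and lists were chosen with earlier results of these data known. In no comparison were the correlations of deviations between same-numbered libraries above 0.1 in all 3 pairs, so numbers were not taken as pairs. The limma step was tested on simulated data for LGG against IgG in wild type.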

Additional observations from a re-analysis of the deposited data

Results flagged for a closer look

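The response to LGG differed between wild-type libraries and those labelled knockout in 6 of 8 members for LGG against IgG, by the limma test of the difference itself (knockout minus wild type, log2). Of all tested genes 19.5% were higher and 15.4% lower in that test. Fosl2 differed by -1.73, Junb by -1.31, Batf by -1.02 and Maff by -0.604, which are smaller rises in the libraries labelled knockout or none. Fos differed by 1.59, which is a smaller fall. Maf, whose fall passed in wild type only, differed by 0.497, a call lost in 7 of 24 fits without 1 library. With anti-PD-1 in both arms, 5 members differed: Fos by 1.24, Fosl2 by -1.80, Junb by -1.59, Batf by -1.23 and Maff by -0.697. There 20.5% of all tested genes were higher and 17.2% lower. The estimates come from separate sets of 12 libraries, but their spread comes from 1 fit to all 24, so the tests are not independent. The labelled genotype cannot be told apart from what goes with the Y-linked genes in any of them.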

How the results depend on the processing

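The 7 calls for LGG against IgG and the 6 for the combination against anti-PD-1 in wild type held in each fit that left out 1 library. Over the 88 member values (34 called) and 9 other settings, 298 of the called values kept their call and 8 lost it, while 55 uncalled values gained one and 15 changed sign. With 1 library left out, 779 called values kept and 37 lost the call. Array weights raised the number of members called to 6 for LGG under the knockout label (from 3), to 4 for anti-PD-1 against IgG in wild type and 4 in the libraries labelled knockout (from 0 each), to 7 and 2 for the combination against LGG (from 0 each) and to 6 for knockout against wild type under IgG (from 3). With only the groups compared, the counts were 2 for the combination against anti-PD-1 in the libraries labelled knockout (from 4), 4 for anti-PD-1 in wild type and 6 for knockout against wild type. DESeq2 called 1 member for anti-PD-1 in each genotype. Without the 3 libraries that stand apart, 1 and 4 members were called for anti-PD-1 in wild type and in the libraries labelled knockout, 3 for the combination against LGG in wild type and 6 for knockout against wild type. With 1 library left out, counts ran from 2 to 5 for LGG in the libraries labelled knockout, from 0 to 2 for anti-PD-1 there and from 3 to 5 for knockout against wild type. In the wild-type comparisons and in knockout against wild type under IgG, leaving out the 3 libraries did not change any log2 value. Only the spread, taken from all libraries of the fit, changed there. The cause of the other changes was not tested. Under the knockout label, array-weight values for LGG and for anti-PD-1 rest mostly on replicate 1 of those groups. Replicate numbers did not pair the libraries (correlations of same-numbered deviations from -0.428 to 0.516, with no comparison above 0.1 in all 3 pairs). A replicate block, added all the same, took the call from Jund for LGG under the knockout label (adjusted p = 0.0609) and gave one to Junb for knockout against wild type (adjusted p = 0.045). Over all genes, array weights and the fit without the 3 libraries called 9068 and 7830 genes for LGG under the knockout label (from 4108), 3056 and 1079 for anti-PD-1 in wild type (from 4), 3053 and 1140 under the knockout label (from 229), 4680 and 1095 for the combination against LGG in wild type (from 8) and 3656 and 1437 under the knockout label (from 35). They called 8769 and 8139 for knockout against wild type (from 4977), 8949 and 8010 for the genotype difference of LGG (from 4449), and 8614 and 7239 for that of the combination (from 4804). For the combination against anti-PD-1 under the knockout label array weights called 8535 and the fit of those groups 1245 (from 4673). With only the groups compared, anti-PD-1 gave 1760 and 0 genes, the combination against LGG 145 and 0, LGG under the knockout label 2677 and knockout against wild type 7936. DESeq2 called 207 and 602 genes for anti-PD-1 and 81 and 201 for the combination against LGG. The lowest member value rested on 137 reads, and each group on 3 libraries.

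Changes of sign were all in uncalled values, log2, in the libraries labelled knockout unless stated. With array weights and without the 3 libraries, Batf was at -0.092 and -0.14 for LGG, Fosl2 at -0.21 and -0.25 and Maf at -0.10 and -0.11 for anti-PD-1, and Fosl2 at -0.068 and -0.15 and Batf at 0.087 and 0.18 for the combination against LGG, where Junb was at 0.0058 without the 3. Jund for the combination against anti-PD-1 was at -0.0033 with edgeR and -0.024 with DESeq2, and Maff for anti-PD-1 at -0.0013 with TMM scaling and -0.0077 with edgeR. With 1 library left out, LGG gave Batf from -0.14 to 0.24 and Maf from -0.14 to 0.017. The combination against anti-PD-1 gave Jund from -0.21 to 0.29 and Batf from -0.33 to 0.044. Anti-PD-1 gave Fosl2 from -0.22 to 0.22, Batf from -0.0016 to 0.37, Maf from -0.030 to 0.14 and Maff from -0.067 to 0.093, and Jun in wild type from -0.039 to 0.012. The combination against LGG gave Fos from -0.11 to 0.0057, Fosl2 from -0.15 to 0.25, Junb from -0.13 to 0.0058, Jund from -0.028 to 0.25, Batf from -0.20 to 0.18 and Maff from -0.0094 to 0.071. Maff for knockout against wild type ran from -0.16 to 0.0019, and the genotype difference of the combination from -0.019 to 0.45 for Jun and from -0.46 to 0.036 for Jund.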
